A study of Mus musculus with 6 samples.

Results

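Tbl2 and 9 genes that lie near it on mouse chromosome 5 were followed in primary osteoblasts in which Mark3 was or was not deleted. The segment matches the part of human chromosome 7 that is lost from one homologue in Williams syndrome. The set was chosen by the low level of Tbl2 in Mark3-deleted cells, seen earlier in these same counts, and the other genes were then added for their place on the chromosome. They are Baz1b, Bcl7b, Fzd9, Eln, Limk1, Eif4h, Clip2, Gtf2i and Gtf2ird1. All 10 were found among the 51912 gene IDs of the count table by their symbols in GENCODE M21, and all 10 passed the filter on low counts that left 19017 genes. The values of Tbl2 are therefore a description and carry no test.

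The libraries came from osteoblasts, the cells that lay down bone, grown from the skull caps of pups 1 d old. All pups were C57BL/6J and carried Mark3 flox/flox, alleles that Cre recombinase can delete, so the control cells carry the floxed alleles as well. Mark3-KO cells (genotype label Mark3-/-, 3 libraries) received CRE-adenovirus for 24 h, and WT cells (genotype label wild-type, 3 libraries) received GFP-adenovirus for 24 h. Genotype and virus cargo cannot be told apart. Whether the 3 libraries of each group were separate cultures is not in the labels, and the p-values cover only library-to-library spread, possibly technical in origin.

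Williams syndrome is a human developmental disorder with a narrowed aorta, a characteristic face and cognitive profile, and effects on growth and calcium handling. Eln loss accounts for the vascular narrowing in people, and deletions in mice have tied other genes of the segment to behaviour, the craniofacial skeleton and bone. Tbl2 encodes a WD-repeat protein of the endoplasmic reticulum membrane that binds the stress kinase PERK in human and mouse cells. In mice, Fzd9 is a Wnt receptor of osteoblasts whose loss lowers bone formation.

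In GRCm38 the genes lie on chromosome 5 in the order Gtf2i (ENSMUSG00000060261, 134237834 to 134314760, minus strand), Gtf2ird1 (ENSMUSG00000023079, 134357656 to 134456716, minus), Clip2 (ENSMUSG00000063146, 134489383 to 134552434, minus), Eif4h (ENSMUSG00000040731, 134619721 to 134639490, minus), Limk1 (ENSMUSG00000029674, 134656039 to 134688598, minus) and Eln (ENSMUSG00000029675, 134702593 to 134747323, minus). After a gap that holds other genes follow Tbl2 (ENSMUSG00000005374, 135149657 to 135165760, plus), Bcl7b (ENSMUSG00000029681, 135168283 to 135181855, plus), Baz1b (ENSMUSG00000002748, 135187264 to 135246129, plus) and Fzd9 (ENSMUSG00000049551, 135248938 to 135251230, minus). All are protein coding, and counts cover whole genes rather than single exons. No annotated gene shares exon bases with Tbl2. Bcl7b, the nearest tested gene, begins 2523 bases beyond its end on the same strand, and the nearest tested gene on the other side, Vps37d, lies at 135072900 to 135078266 on the minus strand. Baz1b shares 121 exon bases with the miRNA gene Gm25315, and Eln, Clip2 and Gtf2ird1 share 194 to 313 with the antisense genes Gm30003, Gm42884 and Gm42882. The library kit does not mark strand, so reads of such pairs cannot be told apart, and each of these partners had at most 7 counts over all libraries.

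The promoters of the 3 adjacent plus-strand genes are shown because these neighbours had unlike differences in RNA level. Each window runs from 250 bases before to 50 bases after the RefSeq start on GRCm38.p6, plus strand, at chr5:135149436-135149735 for Tbl2, chr5:135168122-135168421 for Bcl7b and chr5:135187073-135187372 for Baz1b. Capitals mark the motifs found on either strand.
Tbl2: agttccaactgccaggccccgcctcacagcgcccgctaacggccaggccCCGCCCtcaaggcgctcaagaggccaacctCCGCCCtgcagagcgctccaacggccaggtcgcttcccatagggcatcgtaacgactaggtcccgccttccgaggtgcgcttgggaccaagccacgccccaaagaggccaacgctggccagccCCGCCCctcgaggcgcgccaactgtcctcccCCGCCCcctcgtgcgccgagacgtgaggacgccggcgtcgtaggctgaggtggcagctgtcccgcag
Bcl7b: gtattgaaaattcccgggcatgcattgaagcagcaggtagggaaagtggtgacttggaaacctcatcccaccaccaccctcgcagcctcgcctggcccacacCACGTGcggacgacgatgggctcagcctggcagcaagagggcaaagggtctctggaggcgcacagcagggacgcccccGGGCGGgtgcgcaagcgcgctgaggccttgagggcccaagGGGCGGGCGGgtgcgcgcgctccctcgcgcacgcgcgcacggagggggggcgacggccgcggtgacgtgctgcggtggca
Baz1b: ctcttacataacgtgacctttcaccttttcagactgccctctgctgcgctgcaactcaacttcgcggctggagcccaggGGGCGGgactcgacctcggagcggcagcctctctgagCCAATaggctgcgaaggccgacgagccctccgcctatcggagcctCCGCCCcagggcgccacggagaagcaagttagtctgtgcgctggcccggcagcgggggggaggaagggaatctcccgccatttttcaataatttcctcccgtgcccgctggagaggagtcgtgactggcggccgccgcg

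RefSeq windows were found for 9 of the 10 genes. The motifs searched, on both strands, were the TATA box (TATAAA), the CCAAT box (CCAAT), the GC box (GGGCGG), the E-box (CACGTG) and the cyclic AMP response element (TGACGTCA). The Tbl2 window held 4 GC boxes and none of the others. The Bcl7b window held 3 GC boxes, of which the last 2 overlap, and 1 E-box. The Baz1b window held 2 GC boxes and 1 CCAAT box. Of all 32851 windows, 35.7% held a GC box, 37.4% a CCAAT box, 13.6% a TATA box, 7.15% an E-box and 1.79% the cyclic AMP response element. GC content was 70.7% for Tbl2, 69.7% for Bcl7b and 64.7% for Baz1b, against a median of 52.7% over all windows. Both Tbl2 and Bcl7b windows held 31 CpG dinucleotides, the Baz1b window held 27, and the median of all windows was 7. A match describes these letters and is not a binding site.

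Total counts ran from 56925883 to 71445243 in Mark3-KO libraries and from 57154757 to 67044409 in WT libraries. The deleted gene Mark3 had 47.6, 52.4 and 44.1 CPM (read counts scaled to a common library size with TMM factors) in Mark3-KO and 113, 118 and 118 CPM in WT, which gave -1.27 ± 0.10 as the log2 fold change and its SE (edgeR quasi-likelihood, adjusted p 0.0153). In Mark3-KO 41.4% of the WT level of Mark3 RNA remained. The libraries also differed along transcript GC content. Among the 10% of tested genes richest in GC, the log2 ratio of a library to the 6-library mean had a median of -0.19, -0.69 and -0.97 in Mark3-KO and 1.11, 0.69 and 0.11 in WT replicates 1, 2 and 3. The first principal component of log2 CPM, the main axis of variation between libraries, held 65.5% of the variance. It ordered the 6 libraries in the same way as this median. Most fold changes below are therefore also given with a per-library GC correction, which gave -1.60 for Mark3. Those of the 5 genes nearest to Tbl2 in profile are given without it. Summed osteoblast markers (9 genes) ran from 13180 to 14970 CPM in Mark3-KO and from 18680 to 39080 CPM in WT, chondrocyte markers (4) from 350.6 to 582.6 CPM in Mark3-KO and from 667.9 to 1731 CPM in WT, and skeletal muscle markers (4) from 0.879 to 2.62 CPM in Mark3-KO and from 3.95 to 9.62 CPM in WT. Macrophage and osteoclast markers (6) ran from 209.4 to 221.2 CPM in Mark3-KO and from 201.8 to 229.4 CPM in WT, endothelial markers (4) from 4.13 to 4.49 CPM in Mark3-KO and from 4.10 to 4.37 CPM in WT, and adipocyte markers (4) from 19.99 to 22.5 CPM in Mark3-KO and from 15.1 to 19.96 CPM in WT. These sums rest on their most abundant genes. Col1a1 and Col1a2, which carry the osteoblast sum, had log2 fold changes of -1.74 and -0.74, and -0.52 and -1.06 with the GC correction. Bglap and Bglap2 were also lower without overlap, at -1.71 and -1.62, and -0.81 and -0.73 with the correction. Alpl was lower without overlap, at -0.62, but had 0.48 with the correction. Spp1 was higher without overlap, at 0.34, and -0.004 with the correction. Runx2, Sp7 and Ibsp overlapped between the groups, and with the correction they had -0.15, 0.62 and -0.41. Col2a1, which carries the chondrocyte sum, had -1.52 and -0.23 with the correction. Col9a1 was lower without overlap, at -0.976, and -0.795 with the correction. Sox9 and Acan overlapped, and with the correction they had -0.42 and 0.60. Ctsk carries the macrophage and osteoclast sum and had 0.01 and 0.04. With groups that did not overlap, Ptprc and Adgre1 were higher and Cd68 and Csf1r lower in Mark3-KO. Acp5 overlapped, at -1.04, and -0.33 with the correction. Pecam1, the least abundant endothelial marker, was higher without overlap (0.463 CPM in Mark3-KO, 0.190 CPM in WT), while Cdh5, Kdr and Tek overlapped. Acta1, which carries the skeletal muscle sum, had -2.43, and -1.37 with the correction, while Myod1, Myog and Des overlapped. Lpl carries the adipocyte sum and had 0.36, and 0.11 with the correction. Each of Adipoq, Lpl, Pparg and Fabp4 overlapped between the groups. No marker was at 0 in all 6 libraries, and the part of these lists in the results was not tested. In bulk RNA, fewer cells of a type and less RNA per cell cannot be told apart.

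Tbl2 had 880, 590 and 433 counts in the Mark3-KO libraries, against 3153, 2893 and 3867 counts in the WT libraries. These were 11.9, 9.90 and 7.04 CPM in Mark3-KO and 54.1, 52.5 and 57.6 CPM in WT. The lowest WT library lay far above the highest Mark3-KO library, while the WT libraries were nearly level with each other. The mean was 9.63 ± 2.46 CPM in Mark3-KO and 54.8 ± 2.62 CPM in WT (SD, n = 3 each), so 17.6% of the WT level was present in Mark3-KO. The log2 fold change of Mark3-KO over WT was -2.51 (SE 0.21), and -2.47 (SE 0.18) with the GC correction. Over all 19017 tested genes, 164 had a lower log2 fold change, and 49 did after the correction. The exons of Tbl2 have a GC content of 49.0%, near the median of 48.6% over the tested genes. Leaving out any one library kept the log2 fold change between -2.69 and -2.33.

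**Figure D1:**
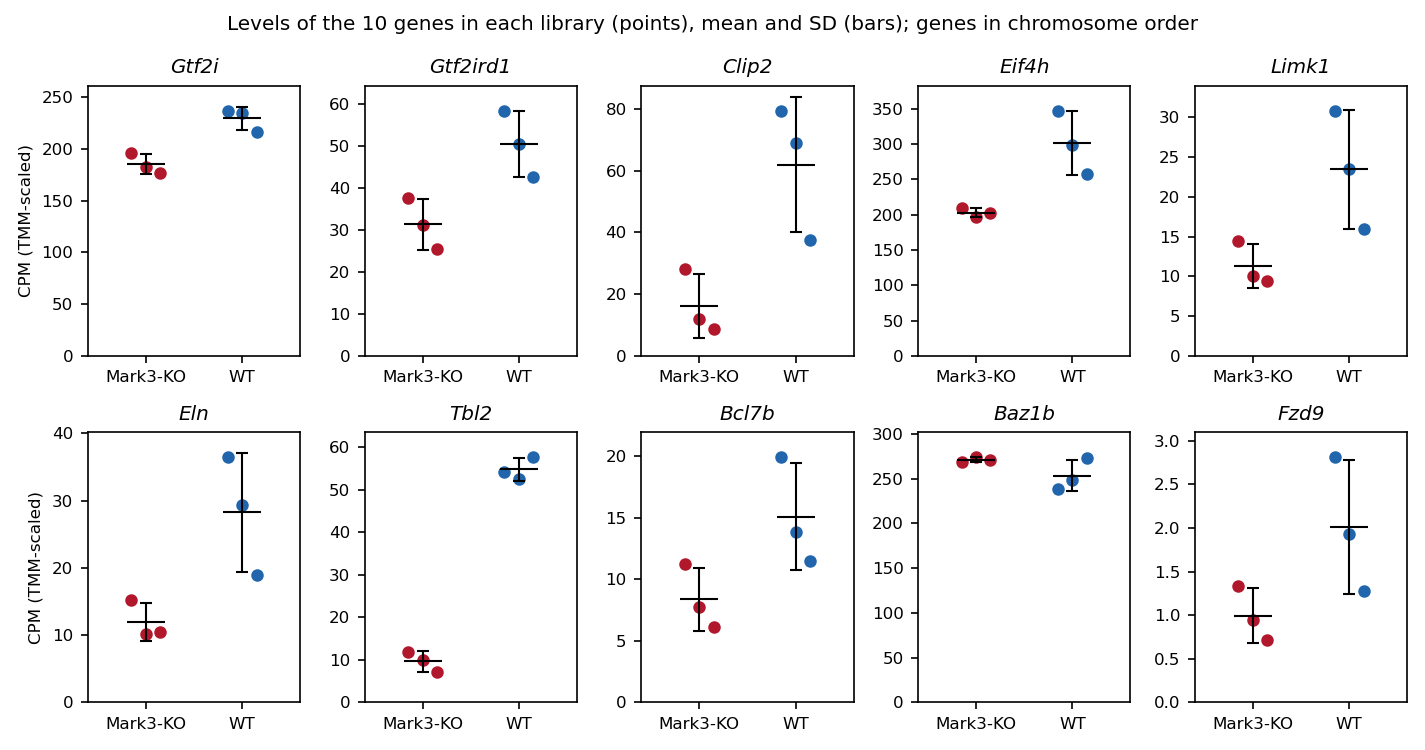
Levels of the 10 genes in CPM, with 1 point per library, Mark3-KO left and WT right, and bars for the mean and SD of 3 libraries. Tbl2 sits at 7.04 to 11.9 CPM in Mark3-KO and at 52.5 to 57.6 CPM in WT, while Baz1b lies at 268 to 274 CPM in Mark3-KO and 239 to 273 CPM in WT.

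Within each library, Tbl2 took 1.504, 1.35 and 0.98% of the summed counts of the 10 genes in Mark3-KO and 4.89, 5.14 and 6.18% in WT. This share needs no scaling for library size, but it and the ratios that follow carry no GC correction. Per 100 counts of Baz1b, Tbl2 had 4.46, 3.61 and 2.60 counts in Mark3-KO and 22.6, 21.2 and 21.1 counts in WT. Per 100 counts of Bcl7b it had 107, 128 and 115 counts in Mark3-KO and 271, 380 and 500 counts in WT. Neither ratio overlapped between the groups. Tbl2 was chosen by its low level in these same counts, so this describes Tbl2 and is no test. Tbl2 and its next neighbour Bcl7b together had 23.2, 17.7 and 13.2 CPM in Mark3-KO and 74.0, 66.4 and 69.2 CPM in WT. Between the outermost of the 10 genes, the largest gain in mean CPM of Mark3-KO over WT was 17.9, for Baz1b, against a difference of -45.1 CPM for Tbl2.

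Of the other 9 genes, 0 had an adjusted p below 0.05 (edgeR quasi-likelihood, Benjamini-Hochberg over all tested genes). Over the whole table, 0.168% of tested genes passed as lower and 0.0473% as higher. Unadjusted p was below 0.05 for 8 of the 9, all lower in Mark3-KO, where 24.8% of tested genes were lower and 20.8% higher at that level. The DESeq2 Wald test called the same number, 8 lower and 0 higher, against a background of 23.1% lower and 15.5% higher, and limma-voom called 0, against 0.105% lower and 0.0368% higher. With the GC correction 0 of the 9 passed in edgeR, against 0.3% of tested genes lower and 0.0947% higher. For 7 of the 9 the 2 groups were separate in CPM, all lower in Mark3-KO, beside 27.5% of tested genes lower and 25.8% higher. For 5 of the 9 the edgeR adjusted p lay between 0.0506 and 0.0509, just above the threshold. Without Mark3-KO replicate 1, 7 of the 9 passed in edgeR as lower, beside 20% of all tested genes lower and 12.1% higher. Without WT replicate 3, 8 passed as lower, beside 20% lower and 12.9% higher. With a filter of 1 CPM in 3 libraries 6 passed as lower, beside 21.3% lower and 16.1% higher, and with library size alone 4 passed as lower, beside 12.2% lower and 11.5% higher. The median log2 fold change of the 9 was -0.85, against 0.02 over all tested genes, and -0.17 with the GC correction, against 0.02 over all tested genes. Library-size scaling alone moved the median of all tested genes to 0.13, and all fold changes here are on the TMM scale.

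**Figure D2:**
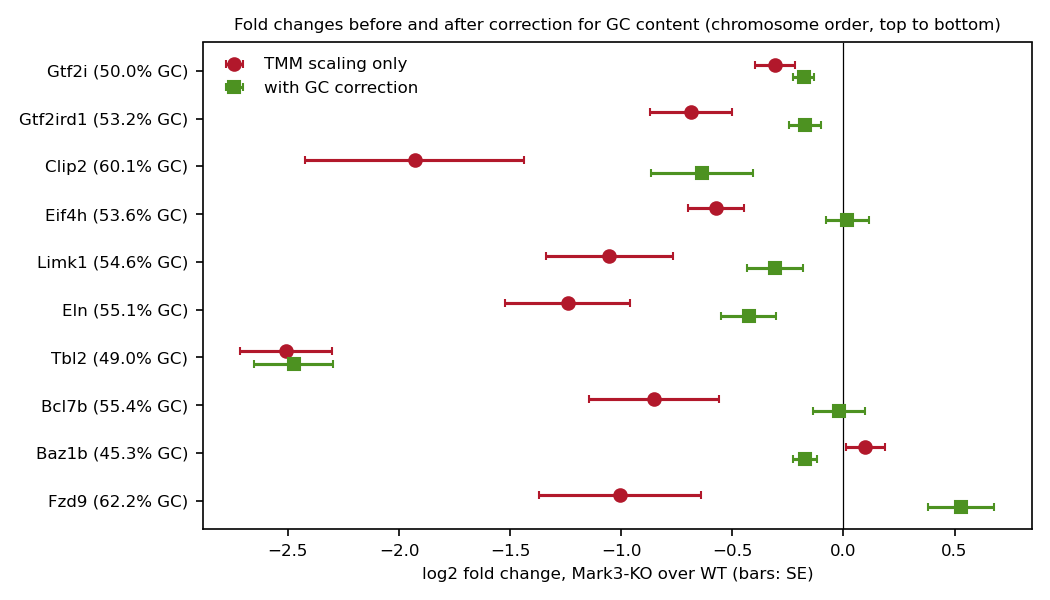
Log2 fold change of Mark3-KO over WT (x axis) for the 10 genes in chromosome order, with bars for the SE, before (circles) and after (squares) the GC correction. Tbl2 is at -2.51 and -2.47, whereas Clip2 is at -1.93 and -0.64 and Fzd9 at -1.01 and 0.53.

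Baz1b and Bcl7b act on chromatin. Baz1b encodes a bromodomain protein, also called Williams syndrome transcription factor, that works with the remodelling ATPase made by Smarca5. It measured 268, 274 and 271 CPM in Mark3-KO and 239, 248 and 273 CPM in WT. The groups overlapped, with a log2 fold change of 0.10 (SE 0.09, edgeR adjusted p 0.411), which turned to -0.17 with the GC correction. Bcl7b encodes a subunit of the BAF chromatin remodelling complex. It measured 11.2, 7.75 and 6.13 CPM in Mark3-KO and 19.9, 13.8 and 11.5 CPM in WT. The highest Mark3-KO library came close to the lowest WT library, and the log2 fold change of -0.85 (SE 0.29, edgeR adjusted p 0.0702) was -0.02 with the GC correction. This nearest neighbour of Tbl2 has exons of 55.4% GC.

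Gtf2i and Gtf2ird1 encode related transcription factors of the TFII-I family, which in people with the deletion are linked to the cognitive and behavioural profile. Gtf2i measured 196, 183 and 177 CPM in Mark3-KO and 237, 235 and 217 CPM in WT. The groups did not overlap, but the difference was small, with a log2 fold change of -0.31 (SE 0.09, edgeR adjusted p 0.0527) and -0.18 with the GC correction. Gtf2ird1 measured 37.6, 31.2 and 25.4 CPM in Mark3-KO and 58.5, 50.5 and 42.6 CPM in WT. All Mark3-KO libraries were below all WT libraries, at a log2 fold change of -0.69 (SE 0.19, edgeR adjusted p 0.0509) and -0.17 with the GC correction.

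Fzd9 was the least abundant of the 10 genes. It measured 1.33, 0.940 and 0.716 CPM in Mark3-KO and 2.81, 1.93 and 1.28 CPM in WT. The highest Mark3-KO library was above the lowest WT library. Its log2 fold change came to -1.01 (SE 0.36, edgeR adjusted p 0.0782), and its sign turned to 0.53 with the GC correction. Its exons have the highest GC content of the set, 62.2%.

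Eln encodes tropoelastin, the soluble subunit of elastic fibres. It measured 15.2, 10.2 and 10.4 CPM in Mark3-KO and 36.5, 29.3 and 18.9 CPM in WT. The groups did not overlap, while the WT libraries spread 1.93-fold from lowest to highest. Its log2 fold change came to -1.24 (SE 0.28, edgeR adjusted p 0.0506) and -0.43 with the GC correction.

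Limk1 and Clip2 act on the cytoskeleton. Limk1 encodes a LIM-domain kinase that inactivates the actin-severing protein cofilin. It measured 14.5, 10.0 and 9.37 CPM in Mark3-KO and 30.8, 23.5 and 16.0 CPM in WT, with a log2 fold change of -1.05 (SE 0.28, edgeR adjusted p 0.0509) and -0.31 with the GC correction. The highest Mark3-KO library was only slightly below the lowest WT library. Clip2 encodes a linker protein that binds growing microtubule ends. It measured 28.1, 11.9 and 8.79 CPM in Mark3-KO and 79.5, 69.0 and 37.5 CPM in WT. The groups did not overlap, and both were spread, 3.20-fold within Mark3-KO and 2.12-fold within WT. Its log2 fold change came to -1.93 (SE 0.49, edgeR adjusted p 0.0506) and -0.64 with the GC correction, the lowest corrected value after Tbl2 among the 10.

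Eif4h encodes a cofactor of the RNA helicase eIF4A in translation initiation. It measured 210, 196 and 203 CPM in Mark3-KO and 348, 299 and 258 CPM in WT. The Mark3-KO libraries were close to each other and below all WT libraries. The log2 fold change of -0.57 (SE 0.13, edgeR adjusted p 0.0506) turned to 0.02 with the GC correction.

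Mark3-KO replicate 1 and WT replicate 3 had the closest median log2 ratios of GC-rich genes across the groups, and they were set side by side after seeing this. The ratio of Mark3-KO replicate 1 to WT replicate 3 in CPM was 0.207 for Tbl2. For the other 9 genes it ran from 0.75 for Clip2 to 1.04 for Fzd9. This pair is 1 library of each group and carries no test.

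**Figure D3:**
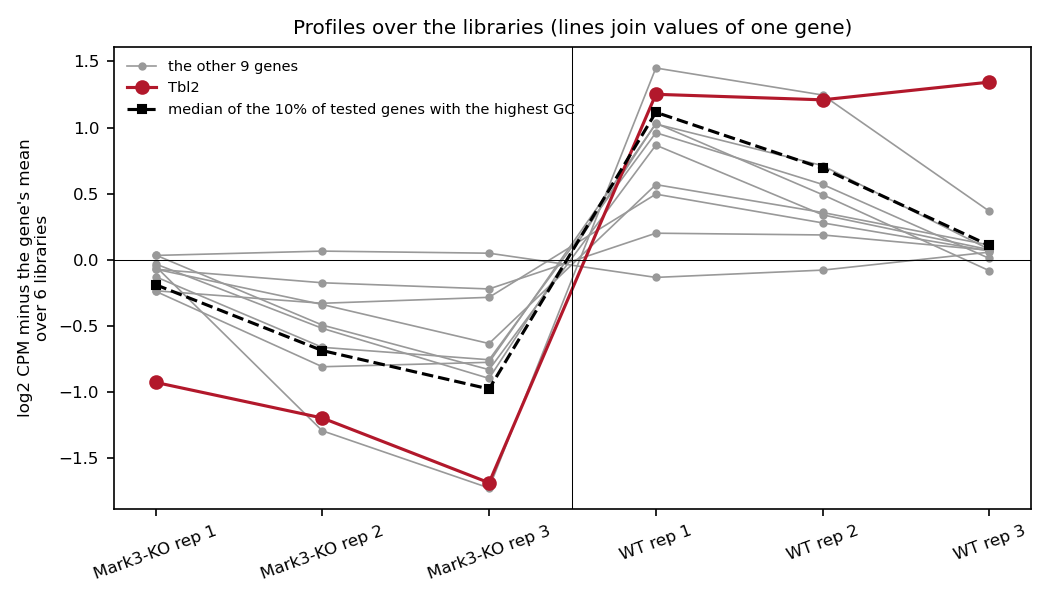
Log2 CPM of each gene minus its own mean over the 6 libraries (y axis) by library, Mark3-KO left and WT right, with lines that join the values of one gene, for Tbl2, the other 9 genes and the median of the tested genes with the highest GC content. In Mark3-KO replicate 1 Tbl2 is at -0.93 while the GC-rich median is at -0.19, and in WT replicate 3 Tbl2 is at 1.34 while that median is at 0.11.

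Levels of different genes are compared per kilobase of merged exons. In Mark3-KO the order was Eif4h (36.5 ± 1.20 CPM per kb), Baz1b (19.8 ± 0.225), Gtf2i (18.2 ± 0.969), Gtf2ird1 (4.13 ± 0.799), Bcl7b (3.48 ± 1.08), Clip2 (3.13 ± 2.003), Limk1 (1.58 ± 0.390), Eln (1.47 ± 0.346), Tbl2 (1.23 ± 0.313) and Fzd9 (0.434 ± 0.136), as mean and SD over 3 libraries. In WT it was Eif4h (54.4 ± 8.07 CPM per kb), Gtf2i (22.5 ± 1.09), Baz1b (18.5 ± 1.28), Clip2 (12.0 ± 4.21), Tbl2 (6.97 ± 0.334), Gtf2ird1 (6.66 ± 1.05), Bcl7b (6.28 ± 1.81), Eln (3.48 ± 1.09), Limk1 (3.27 ± 1.04) and Fzd9 (0.875 ± 0.335). Tbl2 held rank 9 in Mark3-KO and rank 5 in WT. In Mark3-KO the intervals of mean ± SD overlapped between each pair of neighbours in the order running from Gtf2ird1 down to Tbl2, and in WT between each pair running from Tbl2 down to Limk1. Neighbours elsewhere in either order did not overlap.

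Of 18 further genes of the Williams syndrome region, 12 passed the filter on low counts, of which 0 had an adjusted p below 0.05 in edgeR. Unadjusted p was below 0.05 for 8, all lower in Mark3-KO, beside 24.8% of all tested genes. The DESeq2 Wald test called 8 lower and 0 higher, beside 23.1% and 15.5% of its tested genes. With limma-voom 0 were called, beside 0.105% lower and 0.0368% higher of all tested genes. The median log2 fold change of the 12 was -0.98, and -0.17 with the GC correction, against 0.02 for all tested genes both times. In edgeR 6 passed as lower without Mark3-KO replicate 1 and 7 without WT replicate 3, where 20% of all tested genes passed as lower in either fit.

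Stx1a encodes a syntaxin of synaptic vesicle fusion. It measured 2.40 ± 1.21 CPM in Mark3-KO and 8.04 ± 3.04 CPM in WT (SD, n = 3 each), a log2 fold change of -1.74, and -0.47 with the GC correction. Vps37d, a subunit of an endosomal sorting complex and the tested gene closest to Tbl2 on its left, measured 0.362 ± 0.105 CPM in Mark3-KO and 1.68 ± 1.04 CPM in WT, a log2 fold change of -2.20, and -0.35 with the GC correction. Its exons have a GC content of 65.3%. Rcc1l, Abhd11 and Bud23, whose products act in mitochondria or on ribosomal RNA, had log2 fold changes of -1.28, -1.13 and -0.98 that were -0.21, 0.01 and -0.13 with the correction. Nsun5, an RNA methyltransferase gene, had -0.98, and -0.58 with the correction (edgeR adjusted p 0.122 with the correction). Rfc2, for a subunit of the clamp loader of DNA replication, had -0.69, and -0.52 with the correction (edgeR adjusted p 0.151 with the correction). The groups overlapped for Rfc2. Gtf2ird2, the third TFII-I family gene, had -1.0 and -0.25. Near-identical stretches within this family can draw each other's reads, and how such reads were counted is not given in the sources used here.

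Values near 0 were found for Dnajc30, Lat2 and Ncf1, with log2 fold changes of -0.07, -0.18 and -0.01, but with the GC correction these were 0.65, 0.08 and 0.44. Mettl27 measured 4.55, 3.09 and 0.667 CPM in Mark3-KO and 3.53, 3.89 and 3.88 CPM in WT, so 1 Mark3-KO library was above and 2 were below all WT libraries. Trim50, Fkbp6 and Mlxipl had at most 9 counts in any library and were not tested. Cldn3, Cldn4 and Tmem270 had 0 counts in all 6 libraries.

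Within 1000 kb of the Tbl2 start, 48 genes were tested. After Tbl2, the lowest log2 fold change was -2.32 for Hspb1, which was -0.85 with the GC correction, and its exons have a GC content of 61.2%. The lowest corrected value other than that of Tbl2 was -0.98, for Alkbh4. Both names were picked after their values were seen. Between the outermost of the 10 genes, 20 of 24 tested genes had a negative log2 fold change, and 16 did with the GC correction, against 48.9% and 47.8% of all tested genes. Both counts include Tbl2 itself, which was chosen for its low level in Mark3-KO.

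**Figure D4:**
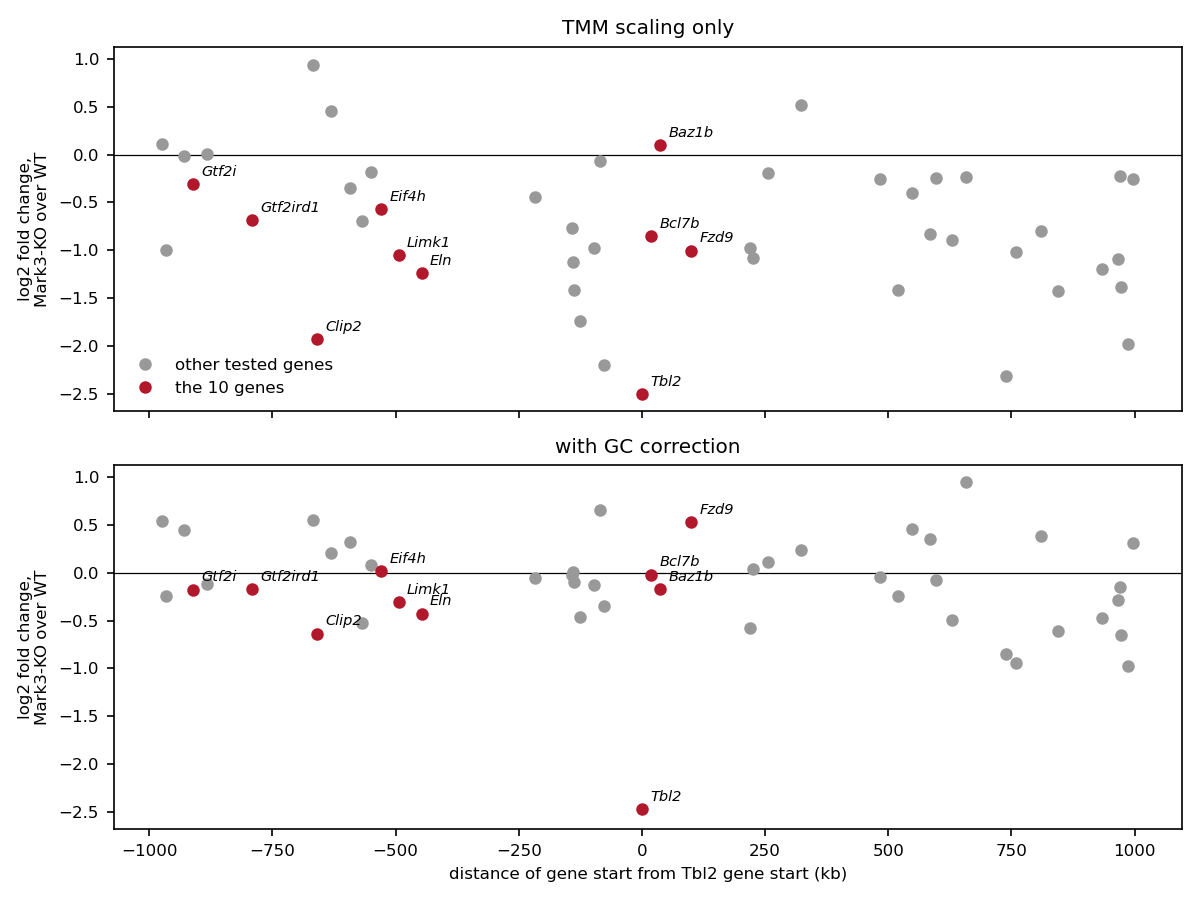
Log2 fold change of Mark3-KO over WT (y axis) of the 48 tested genes within 1000 kb of the Tbl2 start, by distance of their starts from that of Tbl2 in kb (x axis), before and after the GC correction. Tbl2 stays at -2.51 and -2.47, while the next lowest gene is Hspb1 at -2.32 before the correction and Alkbh4 at -0.98 after it.

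**Figure D5:**
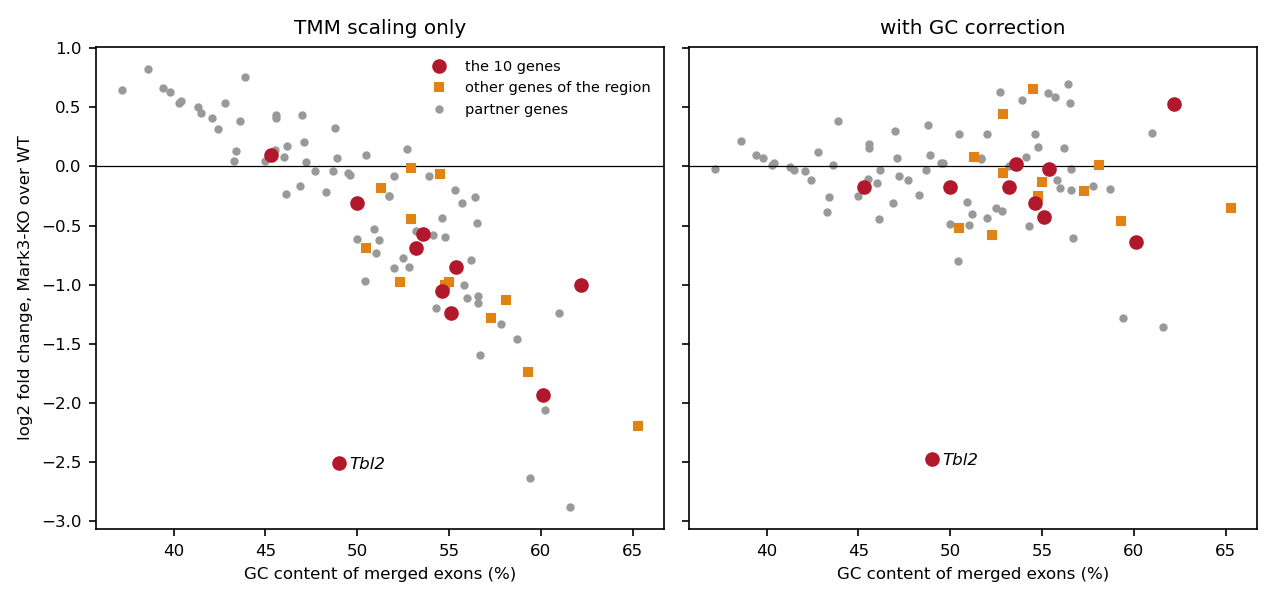
Log2 fold change of Mark3-KO over WT (y axis) by GC content of merged exons in percent (x axis), before and after the GC correction. Red circles are the 10 genes, orange squares the other genes of the region, and grey dots the partner genes of the lists described below. Before the correction the partner genes tend to lie lower at higher GC content. Tbl2, at 49.0% GC, lies at -2.51 before and -2.47 after the correction, below the partner genes of similar GC content in both panels.

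Genes of the same families, complexes or pathways as the 10, called partner genes here, were followed in 9 lists of 69 genes. Not all of them are known to work with a product of the 10. All were tested, and Gtf2ird2 is also on the region list. Pdxp of the LIM kinase list was not analysed here. In edgeR's quasi-likelihood test, 0 of the 69 genes had an adjusted p below 0.05, beside 0.168% lower and 0.0473% higher of all tested genes. Unadjusted p was below 0.05 for 26 lower and 16 higher in Mark3-KO, beside 24.8% lower and 20.8% higher of all tested genes. The DESeq2 Wald test called 23 lower and 13 higher, beside 23.1% and 15.5% of its tested genes, limma-voom called 0, beside 0.105% and 0.0368%, and the median log2 fold change was -0.16, and -0.02 with the GC correction, against 0.02 over all tested genes both times. In edgeR 22 passed as lower and 12 as higher without Mark3-KO replicate 1, beside 20% and 12.1% of all tested genes, and 24 and 14 without WT replicate 3, beside 20% and 12.9%. The genes named below are up to 3 per list with the smallest p.

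Tbl2 protein binds PERK, the endoplasmic reticulum kinase that acts through the transcription factor ATF4. In the list of 8 genes of this arm the median log2 fold change was -0.16, and 0.00 with the GC correction. Unadjusted p was below 0.05 for 4 lower and 2 higher, beside 24.8% and 20.8% of all tested genes. Ddit3, which encodes the stress-induced transcription factor CHOP, measured 28.0 ± 4.90 CPM in Mark3-KO and 54.8 ± 9.86 CPM in WT (SD, n = 3 each), a log2 fold change of -0.97 (edgeR adjusted p 0.0506), and -0.80 with the GC correction. Trib3, a pseudokinase gene induced by CHOP, had -1.33 and Ppp1r15a, which encodes a regulator of eIF2 alpha dephosphorylation, had -1.01, and with the correction these were -0.17 and -0.11. Eif2ak3, the PERK gene itself, measured 58.3 ± 2.75 CPM in Mark3-KO and 60.6 ± 1.19 CPM in WT. Its log2 fold change was -0.06 (edgeR adjusted p 0.651), and 0.03 with the GC correction. Eif2ak3 was added after its value was seen.

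In the list for Baz1b, Smarca5, its ATPase partner, measured 261 ± 39.8 CPM in Mark3-KO and 165 ± 29.7 CPM in WT, a log2 fold change of 0.66 that was 0.09 with the GC correction. Myo1c, for a nuclear and cytoplasmic myosin, had -1.15 and -0.20, and Baz2a, a related bromodomain gene, had -0.25 and 0.06. Of the 8 BAF complex genes listed for Bcl7b, 4 had unadjusted p below 0.05 and all 4 were lower, beside 24.8% of all tested genes lower and 20.8% higher. Smarca4, an ATPase of that complex, had a log2 fold change of -1.11 and -0.18 with the correction, Smarcd1 had -0.79 and 0.16, and Smarcb1 had -0.61 and -0.49.

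The list for Fzd9 held frizzled receptors with the osteoblast genes Isg15, Ccl2 and Cxcl5, 12 genes in all, and 3 were lower and 3 higher at an unadjusted p below 0.05, beside 24.8% and 20.8% of all tested genes. Fzd2 measured 23.2 ± 2.10 CPM in Mark3-KO and 49.7 ± 19.5 CPM in WT, a log2 fold change of -1.10 that was -0.02 with the GC correction. Fzd1 had -0.31 and 0.59, and Fzd3 had 0.54 and 0.01.

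The 10 elastic fibre genes listed for Eln had a median log2 fold change of -0.98, and -0.47 with the GC correction, against 0.02 over all tested genes both times. At an unadjusted p below 0.05, 6 were lower and 1 higher, beside 24.8% and 20.8% of all tested genes. Fbn2, which encodes the microfibril protein fibrillin-2, measured 322 ± 23.2 CPM in Mark3-KO and 534 ± 50.9 CPM in WT, a log2 fold change of -0.73, and -0.50 with the correction. Lox, the enzyme that cross-links elastin and collagen, measured 1868 ± 248 CPM in Mark3-KO and 1106 ± 81.3 CPM in WT, a log2 fold change of 0.76, and 0.39 with the correction. Ltbp4, which is needed for elastin deposition, measured 6.09 ± 3.82 CPM in Mark3-KO and 45.0 ± 26.6 CPM in WT, a log2 fold change of -2.88, and -1.36 with the correction. The edgeR adjusted p was 0.0506 for each of Fbn2, Lox and Ltbp4.

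Of the 11 genes on the LIM kinase and cofilin list, Ssh1, a cofilin phosphatase, measured 31.6 ± 3.37 CPM in Mark3-KO and 54.0 ± 5.94 CPM in WT, a log2 fold change of -0.78, and -0.35 with the GC correction. Pak4 and Rock2, kinases that act on LIM kinases, had -1.46 and 0.63, which were -0.19 and 0.08 with the correction. On the list of 7 microtubule plus-end genes for Clip2, Mapre3 had -0.60 and Mapre1 and Clasp2 had 0.39 and 0.32, and with the correction they had 0.17, 0.01 and -0.12. On the list of 6 translation initiation genes for Eif4h, Eif4a2 had 0.55, Eif4e had 0.54 and Eif4g1 had -0.43, and with the correction these were 0.03, 0.12 and 0.28.

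The 5 protein-coding genes whose profiles over the 6 libraries were nearest to that of Tbl2 were Ak4, Hpcal1, Lrrc75b, Aen and Limd2. The measure was the root mean square difference of centred log2 CPM over the 6 libraries, among 12231 genes averaging 1 CPM or more. It was 0.238 for Ak4, 0.253 for Hpcal1, 0.267 for Lrrc75b, 0.287 for Aen and 0.293 for Limd2, whose log2 fold changes were -2.31, -2.34, -2.76, -2.17 and -2.17. Since both groups enter, it mainly orders genes by a like fold change. Ak4, a mitochondrial adenylate kinase gene on chromosome 4, measured 5.79, 5.27 and 4.59 CPM in Mark3-KO and 20.2, 27.8 and 29.7 CPM in WT. Aen, a nuclease gene on chromosome 7, measured 43.7, 30.8 and 14.6 CPM in Mark3-KO and 148, 127 and 126 CPM in WT. For both genes all Mark3-KO libraries lay below all WT libraries. None of the 5 lies on chromosome 5, and with the GC correction 2 of them, Ak4 and Aen, were again among the nearest 5. Of the other 9 members, Clip2 was nearest to Tbl2 without the correction, at 0.544 and rank 108, and Baz1b was farthest, at 1.34 and rank 7097. With the correction Clip2 was again nearest, at 0.925 and rank 621, and Fzd9 was farthest, at 1.54 and rank 11565.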

How the data were processed

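RNA from primary mouse osteoblasts was sequenced in 3 Mark3-KO and 3 WT libraries. The values are raw counts per gene, which the authors deposited as 1 table of whole numbers for 51912 Ensembl IDs. FastQC, HISAT2 2.0.5, StringTie and DESeq2 are named with the build GRCm38, per the submitters' processing notes. Their order and settings, the annotation and the treatment of reads that match several genes are not given in the sources used here. Libraries were made from total RNA with TruSeq RNA v2 reagents, per the labels' protocols, and these keep no strand.

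Symbols, positions and exons came from GENCODE M21, which held 51719 of the IDs, and 193 IDs had no match. Genes were kept with filterByExpr, scaled by TMM and compared as Mark3-KO over WT with edgeR 4.0.16 (glmQLFit and glmQLFTest, R 4.3.3), with Benjamini-Hochberg adjustment over all 19017 tested genes and a threshold of 0.05. A standard error is the fold change divided by the root of the F statistic. CPM use TMM-scaled library sizes. The GC correction subtracted from each library a natural spline (6 degrees of freedom) of its log2 ratio to the mean of the libraries on exon GC content, which was known for 18965 tested genes, and was entered as an offset. DESeq2 1.42.0, limma 3.58.1 (voom), other scalings and filters, a replicate block and leaving out each library were alternatives. The main edgeR fit was tested on simulated counts with a fixed dispersion and no GC difference between libraries. That simulation did not cover the GC correction. Library totals ran from 56925883 to 71445243 counts, and depth limits the lowest genes, such as Fzd9, most.

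Members and lists were chosen with earlier results of these data known. Named genes are the 10 genes and Mark3, every gene of the region list, up to 3 genes of each partner list with the smallest p and a mean of at least 1 CPM, the 5 protein-coding genes nearest to Tbl2 in profile, genes that share exon bases with a member, and the nearest tested gene on either side of Tbl2. Others are said to have been added after their values were seen.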

Additional observations from a re-analysis of the deposited data

How the results depend on the processing

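The log2 fold change of Tbl2 kept its direction and stayed between -2.69 and -2.33 under all alternatives run. With the GC correction the sign turned for Baz1b (-0.17), Fzd9 (0.53) and Eif4h (0.017). Combined with the replicate block these were -0.17, 0.53 and 0.009.

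For the other 9 genes, 0 of which passed in edgeR, 8 passed with DESeq2, 6 with a filter of 1 CPM in 3 libraries, 4 with library size alone and from 0 to 8 when a library was left out. For the 12 tested genes of the region list these counts were 8, 5, 5 and 0 to 7. They were 36, 31, 27 and 0 to 38 for the 69 partner genes. For all tested genes, where 41 passed, they were 6915, 5266, 4510 and 0 to 6460. DESeq2 gave an adjusted p for 17895 genes and called 23.1% lower and 15.5% higher. The filter of 1 CPM left 14086 genes, of which 21.3% passed as lower and 16.1% as higher. It kept 10 of the 12 region genes and 68 of the 69 partner genes. With library size alone 12.2% of 19017 genes passed as lower and 11.5% as higher. Over all tested genes the count was 6265 without Mark3-KO replicate 1, 3 without replicate 2 and 5 without replicate 3, and 14, 0 and 6460 without WT replicates 1, 2 and 3. limma-voom called 27 of all tested genes, and 75 passed with the GC correction. Of the 5 genes nearest to Tbl2 in profile, 2 were kept with the GC correction. The cause of these moves was not tested, and 4707 tested genes had an adjusted p below 0.055.

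For libraries with the same replicate number the correlations of their deviations from the group means were 0.33, -0.03 and 0.29, so they were not treated as paired. Mark3-KO replicates 1 and 3 correlated best with their own number in WT and replicate 2 did not, which is a hint from the data and not from the labels. With the replicate block 8 of the 9 genes passed, 7 of the region list, 45 partner genes and 8487 of all tested genes. With the replicate block and GC correction together 0 of the 9 genes, 2 of the region list, 11 partner genes and 1685 of all tested genes passed. Genotype, virus and position along the GC axis cannot be told apart by these libraries, which number 3 a group.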
